A study of Mus musculus with 59 samples.

Results

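Melan-a cells treated with alpha-melanocyte stimulating hormone (α-MSH) for 4 days were compared with untreated melan-a cells on 6 two-colour arrays, out of 59 arrays in the series. The 6 arrays were chosen by their labels, as those whose second channel held RNA of cells given α-MSH for 4 d. Melan-a cells are immortal pigmented melanocytes, labelled as of the strain C57BL6. The treated cells received α-MSH at 100 nM and 37 C, and the cells of the other channel were labelled only as untreated melanocytes. Which treatment time the untreated cells were matched to, and whether times or drugs shared their untreated RNA, is not stated. The series also holds α-MSH at 3 h and at 1, 2 and 3 d, and recombinant murine agouti signaling protein (ASP) at 10 nM for the same times, each against untreated melan-a cells. The study's design text gives 3 biological replicates for each drug and time, each hybridised once in each dye orientation. Whether these replicates were separate cultures is not stated, so that p-values measure only spread between replicates. That spread was estimated for each probe over all 10 drug and time groups together, not from the 4 d replicates alone.

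α-MSH is a peptide cut from pro-opiomelanocortin that binds the melanocortin 1 receptor of melanocytes. The receptor signals through a stimulatory G protein and cyclic AMP, and prolonged stimulation raises the transcription factor MITF, the enzymes of melanin synthesis and the share of black-brown eumelanin. ASP binds the same receptor as an antagonist and inverse agonist, and favours yellow pheomelanin. These are properties known from other work. They could not be read from the values analysed here, because no table pairing the probe numbers with genes was given. Probes are therefore named by number, and no pigmentation, cell cycle or cell type marker gene could be looked up. The deposited values are ratios without levels, so the melanocyte identity of the cells could not be checked either. In ratios from bulk RNA, a change in the make-up of the culture and a change in RNA per cell cannot be told apart.

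Between 38058 and 38361 of the 38591 listed probes had a value on each of the 6 arrays, and 37577 had one on all 6. The values are log ratios, taken as log2, a base that is not stated. Their numerator is likely the treated RNA, since the design text writes treated/untreated, so every "higher" and "lower" rests on that reading. On the 3 arrays with treated RNA in Cy5 the median log2 ratio was -0.32, -0.77 and -0.53. With treated RNA in Cy3 it was 0.18, 0.27 and 0.58. The sign of the median turned with the dye in all 3 replicates, and the values spread most on the arrays of replicates 2 and 3. The labels name no runs, and the runs used here are ranges of nearby database numbers, with gaps. Replicate 1 came from run A and replicates 2 and 3 from run B. Its interquartile ranges were 0.82 and 0.68 on the log2 scale, against 1.01 to 1.59 on the other 4 arrays.

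**Figure D1:**
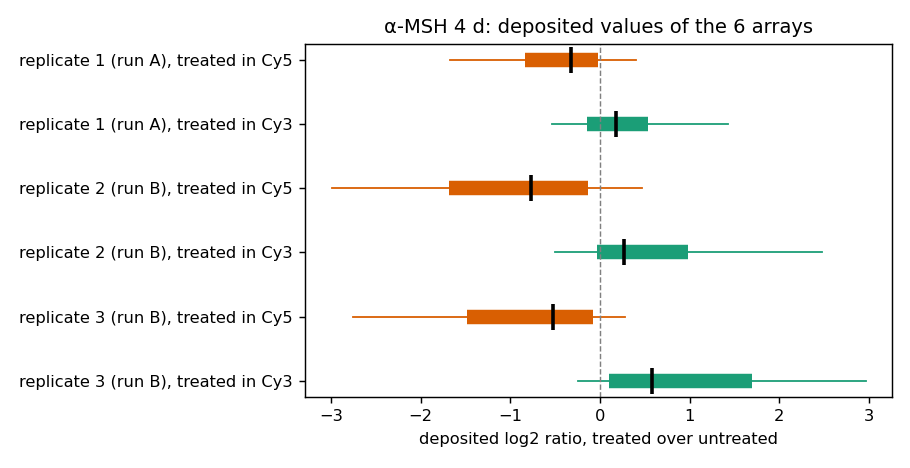
Deposited log2 ratios, treated over untreated, of each of the 6 arrays of α-MSH at 4 d. The line runs from the 5th to the 95th percentile, the bar from the 25th to the 75th and the black tick marks the median, which lay below 0 with treated RNA in Cy5 (orange) and above 0 with it in Cy3 (green).

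The 2 dye orientations gave opposite pictures for most probes. After subtraction of each array's median, the mean of the 3 Cy5 arrays and the mean of the 3 Cy3 arrays correlated at r = -0.82 across the 37577 probes, which are not independent replicates. The sign of the means differed in 31720 probes (84.4%). Arrays of one orientation correlated positively, between 0.39 and 0.80. The dye effect of a probe had a median size of 0.43 on the log2 scale and the averaged response to α-MSH at 4 d a median size of 0.14. The dye effect of each probe was therefore estimated over all α-MSH arrays and removed, and both arrays of a replicate were averaged, which cancels it in a complete pair.

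**Figure D2:**
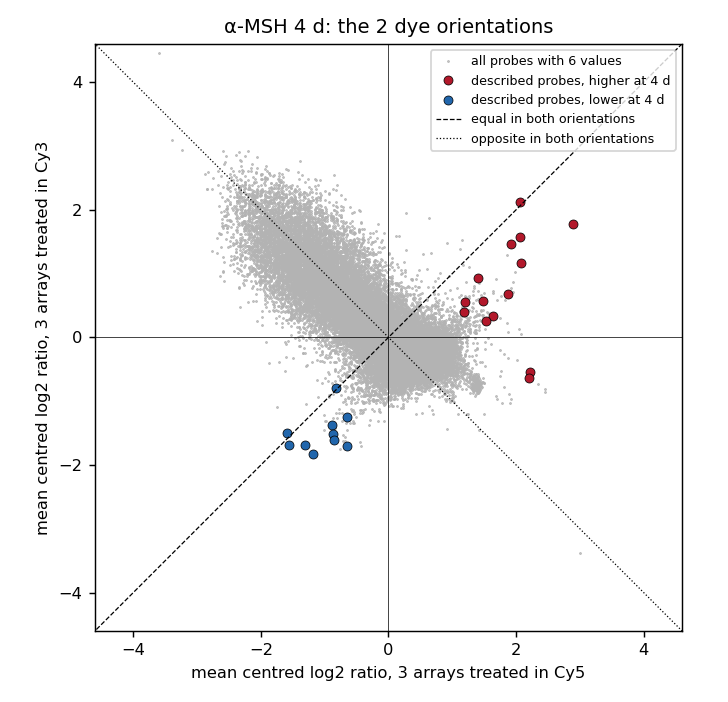
Mean centred log2 ratio of the 3 arrays with treated RNA in Cy5 (horizontal) and of the 3 with it in Cy3 (vertical) for the 37577 probes with a value on all 6 arrays (grey). The cloud lies along the dotted line of opposite values (r = -0.82), whereas 12 of the 14 described higher probes (red) and all 10 lower ones (blue) have one sign in both means.

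Once averaged in this way, replicates were only weakly alike. Replicates 1 and 2 correlated at 0.14 across probes, replicates 1 and 3 at 0.04 and replicates 2 and 3 at 0.07. The SD of a probe over the 3 replicates had a median of 0.26 on the log2 scale. Within replicates the paired arrays, after removal of the dye effect, correlated at -0.24, 0.31 and -0.10. The labels do not say which arrays form a pair, and the pairs used here follow the database numbers.

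The main question was which probes differed between cells treated for 4 d and untreated cells. In limma, none of 38428 tested probes (0%) had a Benjamini-Hochberg adjusted p under 0.05, and 1928 (5.02%) had an unadjusted p under 0.05. Of these, 1306 (3.4%) were higher and 622 (1.62%) lower with α-MSH. The share of 5.02% is close to what this threshold gives by chance where no probe differs. The smallest adjusted p lay just above the threshold, at 0.051, and was shared by 13 probes, 10 higher and 3 lower. Altogether 61 probes had an adjusted p under 0.1 in limma, 46 higher and 15 lower. The median standard error of a probe's mean was 0.22 on the log2 scale and its 95% interval reached a median of 0.46 to either side, so for most probes a smaller response could not be told from 0 with 3 replicates.

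Larger values were few. The mean reached 2-fold in 49 higher and 41 lower probes, and it did so in every replicate in 10 higher and 4 lower probes. Of the probes with a value on all 6 arrays, 6725 were higher and 4722 lower in all 3 replicates (30.5%). On all 6 single arrays, before any removal of the dye effect, 361 were higher and 289 lower (1.73%), 28 of the higher and 15 of the lower ones by at least 2-fold on average. Values below are for 24 probes taken by rule from those with one sign in every replicate: the 10 smallest p in each direction and the 5 highest and 5 lowest means among probes with one sign on all 6 arrays. With 6 probes chosen by both criteria, these were 14 higher and 10 lower probes. They were picked for their values at 4 d, which are given as a description.

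Probe 1788237_1 had the highest mean of the 24. Its centred log2 ratio was 2.88, 2.37 and 3.41 on the Cy5 arrays of replicates 1 to 3 and 1.95, 1.50 and 1.88 on their Cy3 arrays. All 6 arrays lay far above 0, and those in Cy5 lay above those in Cy3 in every replicate. The replicate values were 2.41, 1.93 and 2.64, a mean of 2.33 ± 0.36 (SD, n = 3) or 5.03-fold, with a limma adjusted p of 0.057.

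Probe 1779209_1 followed with a mean of 2.09, or 4.27-fold, but its replicates were far apart. Replicate 1 stood at 1.16, replicate 2 at 2.40 and replicate 3 at 2.72. The lowest array was that of replicate 1 in Cy5, at 0.65, and the highest that of replicate 3 in Cy5, at 3.24. It shared the smallest limma adjusted p of 0.051, although its SD over replicates was 0.82.

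Probes 1779290_1, 1768189_1 and 1770633_1 had means of 1.82, 1.69 and 1.63, and each was above 0.9 on all 6 arrays. Of these, 1770633_1 had the closest replicates, at 1.60, 1.71 and 1.57 (SD 0.07, n = 3, limma adjusted p = 0.082). The limma adjusted p was 0.26 for 1779290_1 and 0.29 for 1768189_1, for which limma gave standard errors of 0.47 and 0.46. Their SDs over replicates were 0.40 and 0.24 at 4 d but 1.00 and 2.02 at 3 h of α-MSH, which enters the same estimate of spread.

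The smallest p of all tested probes was that of 1776305_1. Its 6 arrays read 1.65, 1.43 and 1.13 in Cy5 and 1.41, 0.90 and 0.48 in Cy3. Replicate 1 was highest and replicate 3 lowest in both orientations. The replicate values of 1.53, 1.17 and 0.81 gave a mean of 1.17 ± 0.36 (SD, n = 3), 2.25-fold, with a limma adjusted p of 0.051.

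Replicate 3 was the lowest of the 3 in 9 of the 14 higher probes. In 1777252_1 it stood at 0.59, against 1.60 and 1.65, and its Cy3 array was below 0, at -0.23. The same array was below 0 for 1775907_1 and 1786937_1, at -0.13 and -0.20, while the other 5 arrays of both probes were above 0. Means of 1777252_1, 1775907_1 and 1786937_1 were 1.28, 1.02 and 0.98.

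Smaller but closer replicates were seen in 1767820_1 and 1763341_1. Probe 1767820_1 stood at 0.97, 0.86 and 0.83 in replicates 1 to 3 (mean 0.89, SD 0.07), and 1763341_1 at 0.74, 0.92 and 0.97 (mean 0.88, SD 0.12). The arrays of 1767820_1 differed by dye, at 1.58, 1.45 and 1.55 in Cy5 and 0.37, 0.28 and 0.11 in Cy3, and its mean after loess was 0.73 (limma adjusted p = 0.089). Probe 1783862_1 stood at 1.01, 0.83 and 0.54 and was above 0 on all 6 arrays, the lowest of them at 0.05.

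A pair of probes rested on one dye orientation. Probe 1798518_1 read 2.17, 2.26 and 2.23 in Cy5 but -0.61, -0.10 and -0.91 in Cy3, and 1789092_1 read 2.10, 2.31 and 2.20 in Cy5 but -0.82, -0.13 and -0.97 in Cy3. Both changed sign with the dye in every replicate, and their values lay close to each other on every array. Their averaged means of 0.84 and 0.78 shared the limma adjusted p of 0.051. With a loess removal of the dye bias of each array the means became 0.47 and 0.43, with limma adjusted p-values of 0.96 and 0.97.

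All 10 lower probes were below 0 on all 6 arrays, which for 5 of them was a condition of the choice. Probe 1768586_1 had the lowest mean, with replicates at -1.48, -1.30 and -2.09. The mean was -1.63 ± 0.42 (SD, n = 3), 3.09-fold lower, with a limma adjusted p of 0.079. Replicate 3 was lowest in both orientations, at -1.87 in Cy5 and -2.32 in Cy3.

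Probe 1792131_1, at a mean of -1.55, was carried most by replicate 1. It stood at -2.24, -1.46 and -0.93 in replicates 1 to 3, and the Cy5 array of replicate 1 read -2.64. Its mean without replicate 1 was -1.20 in limma.

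Among the probes with the smallest adjusted p were 3 lower ones. Probe 1763454_1 read -1.47, -1.14 and -0.96 in Cy5 and -1.97, -2.05 and -1.44 in Cy3, so that each Cy3 array lay below its partner. Its replicates stood at -1.72, -1.60 and -1.20, a mean of -1.51, or 2.84-fold lower. Probe 1767340_1 had a similar mean of -1.49 but a wider spread, at -1.89, -0.95 and -1.64.

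The closest agreement was that of 1771300_1, at -0.94, -0.96 and -0.97 (mean -0.96, SD 0.02, n = 3), or 1.94-fold lower. It shared the limma adjusted p of 0.051. Its arrays still differed by dye, at -0.67, -0.61 and -0.68 in Cy5 and -1.20, -1.30 and -1.26 in Cy3. Probe 1789552_1 followed, at -1.17, -1.26 and -1.15 (SD 0.06), with a limma adjusted p of 0.058.

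The remaining lower probes had means between -1.24 and -0.80. They were 1791244_1 at -1.24, 1770597_1 at -1.18, 1783022_1 at -1.12 and 1797779_1 at -0.80. Their limma adjusted p-values ran from 0.063 to 0.081.

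**Figure D3:**
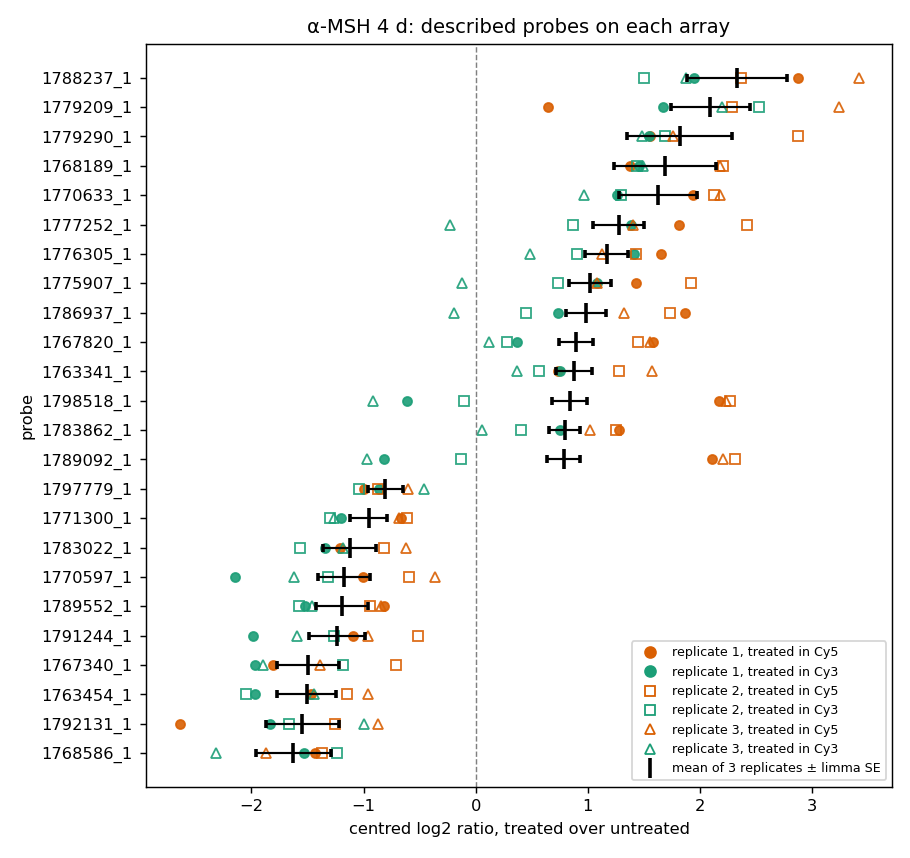
Centred log2 ratio, treated over untreated, of the 24 described probes on each of the 6 arrays of α-MSH at 4 d, with the mean of the 3 replicates and its limma standard error (black). The 10 lower probes lie below 0 on all 6 arrays, 5 of them by the rule of choice, while 1798518_1 and 1789092_1 lie above 0 in Cy5 (orange) and below 0 in Cy3 (green).

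The count of 0 depended on the processing, for causes that were not tested. Calls appeared under 9 of 18 alternatives. They numbered 66 when arrays were paired by the numbers in their titles, 34 after loess and 121 when only probes with a value on all 59 arrays were tested. The widest count was 506, with weights on the replicates. The count was 0 with the spread taken from the 3 replicates of 4 d alone, from the α-MSH replicates alone, or without any one of the 3 replicates.

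Across these 9 alternatives 518 probes were called at least once, 357 higher and 161 lower, and the 24 described probes were all among them. The 9 include fits on single arrays, with 151 and 122 calls, which entered both arrays of a replicate separately. In each of the 9, the same 6 probes were called: 1776305_1, 1777252_1 and 1783862_1 among the higher and 1763454_1, 1767340_1 and 1771300_1 among the lower. None of the 24 changed direction in any of the alternatives. All alternatives refit the arrays from which the 24 were chosen, so neither these calls nor the kept directions are separate support. Leaving out replicate 1 or 2 moved the smallest limma adjusted p to 0.31 or 0.62, and leaving out replicate 3 to 0.07.

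**Figure D4:**
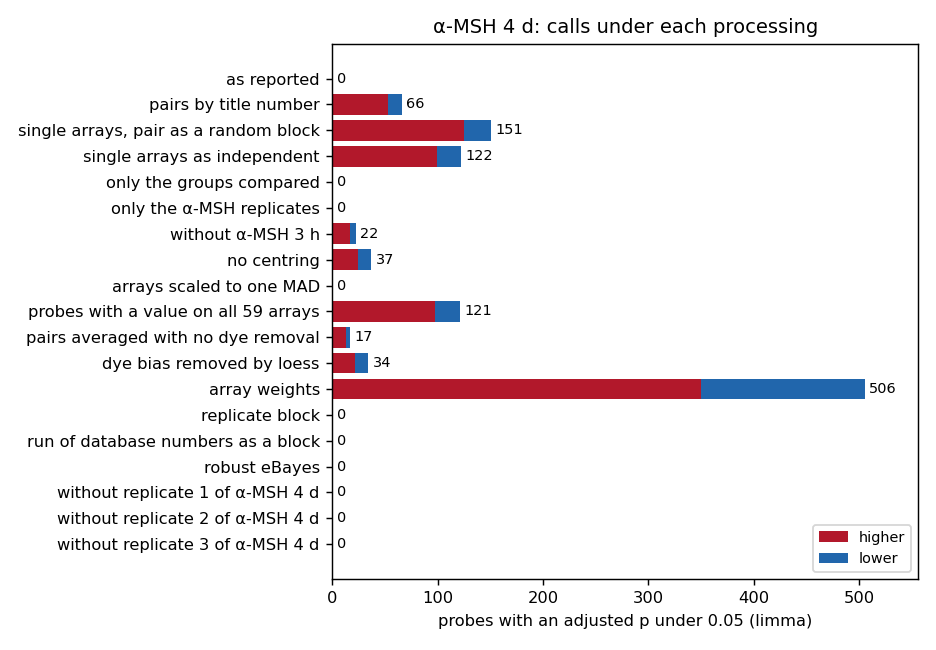
Number of probes with a limma adjusted p under 0.05 for α-MSH at 4 d against untreated cells, as reported and under each of 18 alternatives, split into higher (red) and lower (blue). The count is 0 as reported and under 9 alternatives, and between 17 and 506 under the other 9.

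The next question was whether 4 d differed from the earlier times of α-MSH. Tested directly in limma, 4 d differed from 3 h, 1 d, 2 d and 3 d in 0 probes each (0% of 38401 to 38422 tested). Unadjusted p-values under 0.05 were found in 816 probes against 3 h (2.12%), 847 against 1 d (2.21%), 472 against 2 d (1.23%) and 732 against 3 d (1.91%). Each of these shares is below what this threshold gives by chance where no probe differs. The median 95% interval of a difference between times reached 0.65 to either side on the log2 scale. The share of probes with one sign on all 6 single arrays, given without a test, was 1.73% at 4 d. It was 1.36% after 3 d of treatment, 0.98% after 2 d, 0.54% after 1 d and 0.27% after 3 h. This share was taken before removal of the dye effect, and other measures, also untested, did not rise steadily. One sign in all 3 replicates was held by 17.6% (3 h), 25.8% (1 d), 25.4% (2 d), 23.4% (3 d) and 30.5% (4 d). Means of 2-fold were reached by 50 higher and 59 lower probes (3 h), then 25 and 107 (1 d). Later counts were 60 and 91 (2 d), 93 and 48 (3 d), 49 and 41 (4 d).

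The 24 probes were then followed over time. For the 14 higher ones the median log2 ratio was -0.01 after 3 h, then 0.24, 0.53 and 0.70 after 1, 2 and 3 d, and 1.09 at 4 d. Those 10 that were lower at 4 d had medians of -0.04, -0.28, -0.69, -1.27 and -1.21 in the same order. At 3 h the 24 were divided in sign, with 7 of 14 above 0 and 6 of 10 below 0. Replicates 1 and 2 at 3 h correlated at -0.38 across probes, so a mean near 0 can hide replicates far apart. Probe 1788237_1 read -1.63, 2.33 and 0.21 there, whereas 1767820_1 read -0.08, -0.07 and -0.10. The medians at 1 d rested mostly on replicate 1, which was above 0 in all 14 and below 0 in all 10. Many of the 24 had the opposite sign in replicate 2 or 3. For example, 1768586_1 read -2.05, 0.17 and 0.21 in replicates 1 to 3, whereas 1798518_1 kept one sign, at 0.14, 0.08 and 0.13. At 2 d replicate 1 again lay furthest from 0 in many of the 24, as in 1791244_1, at -1.21, -0.22 and 0.34. It did not in 1798518_1, at 0.51, 0.73 and 0.57. By 3 d all 14 were above 0 and all 10 below 0. Since the probes were chosen at 4 d, the value there is raised by the choice and is no measure of a further increase.

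Single probes took different courses. Probe 1788237_1 stood at 2.14 ± 0.32 (SD, n = 3) at 3 d and at 2.33 at 4 d, after 0.78 ± 1.12 at 2 d, where its replicates ran from -0.02 to 2.05. Probe 1768586_1 stood at -2.56 ± 0.43 at 3 d and at -1.63 at 4 d. The highest replicate at 3 d, -2.29, lay just below the lowest at 4 d, -2.09, and in limma this difference of 0.93 had an adjusted p of 1. Probe 1786937_1 stood at 0.22 ± 0.05 at 3 d and at 0.98 at 4 d, with no overlap of replicates, and this difference of 0.76 did not pass either (limma adjusted p = 1).

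At 3 d, 26 of 38430 probes (0.0677%) passed in limma, 9 higher (0.0234%) and 17 lower (0.0442%). At 4 d those 9 had a median of 1.00, from 0.14 to 2.09, after 1.34 at 3 d. The 17 lower ones had a median of -0.57, from -1.63 to -0.10, after -1.15. At 4 d 6 of the 9 and 14 of the 17 had an unadjusted p under 0.05, where 3.4% of all tested probes were higher and 1.62% lower at that p. The limma p-values at 3 d and 4 d share each probe's estimates of spread and dye effect, so these counts are no separate support. Of these 26, 1789242_1 stood at 0.14 and 1769159_1 at 0.18 at 4 d, after 1.09 and 1.04 at 3 d. Probe 1777727_1 had close replicates at 4 d, at 0.99, 1.02 and 0.98. Since the 26 were chosen at 3 d, their values there are raised by the choice, and the smaller values at 4 d are no measure of a decline. Tested directly in limma, 4 d differed from 3 d in 0 probes.

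The last comparison set α-MSH against ASP at 4 d. Of 34123 probes tested directly in limma, 909 (2.66%) differed between the drugs. The log2 ratio of 368 (1.08%) was higher and that of 541 (1.59%) lower under α-MSH. The doses differed, all ASP arrays came from another run of database numbers, and drug and run cannot be told apart. The 909 became 520 when α-MSH replicate 1 was left out, 459 without its replicate 2 and 460 if ASP replicate 2 was dropped. It was 262 with the spread taken from the groups compared alone, 1383 with arrays scaled to one spread and 2560 with array weights.

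The probes lower with α-MSH at 4 d were high with ASP, if the deposited ratios of both drugs have the same numerator, which is not stated. ASP at 4 d had calls in 1938 of 34156 probes (5.67%) in limma, 1311 of them higher (3.84%) and 627 lower (1.84%). Of the 10 lower probes, all 10 were above 0 with ASP and 9 passed, with a median of 1.87. After 3 h of ASP the median of the same 10 was 0.12, and it was 1.39, 1.40 and 1.71 after 1, 2 and 3 d. Replicate 3 of ASP at 2 d was 1 array with treated RNA in Cy3, with no partner. The difference between the drugs at 4 d was called in all 10, with a median of -3.09 on the log2 scale, but the α-MSH side of it had served to choose the probes.

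In 1768586_1 the ASP replicates at 4 d stood at 2.58, 2.77 and 2.61, far above the α-MSH values of -1.48, -1.30 and -2.09. The difference of -4.28 (SE 0.47) had a limma adjusted p of 6.7e-06. Probe 1763454_1 stood at 2.65, 2.71 and 2.34 with ASP, a difference of -4.07 (SE 0.37, limma adjusted p = 5.8e-07). Probe 1791244_1 was the exception among the 10, with ASP values of -0.01, 0.25 and 0.64 that did not pass (limma adjusted p = 0.59).

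The higher probes were less uniform under ASP. At 4 d 11 of 14 were below 0, 3 passed as lower, and the median was -0.30. Those 3 were 1776305_1 at -1.86 ± 0.48 (SD, n = 3), 1786937_1 at -1.70 ± 0.25 and 1775907_1 at -0.74 ± 0.29. For 1776305_1 the replicates with ASP ran from -2.34 to -1.38 and those with α-MSH from 0.81 to 1.53, a difference of 3.03 (SE 0.27, limma adjusted p = 4.8e-07). Probe 1767820_1 was above 0 with both drugs, at 0.89 with α-MSH and 0.40 ± 0.24 with ASP, and the drugs did not differ in it at an adjusted p of 0.05 (limma adjusted p = 0.29, 95% interval of the difference 0.05 to 0.92). Of the 14, 12 could be tested between the drugs and 10 of these were called, while 1779209_1 and 1779290_1 had 1 ASP replicate each and were not tested. The α-MSH side of these differences had again served to choose the probes. With ASP at 4 d, 1763341_1, 1783862_1 and 1789092_1 stood at 0.01, -0.08 and -0.05, so their calls rest on the α-MSH side.

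**Figure D5:**
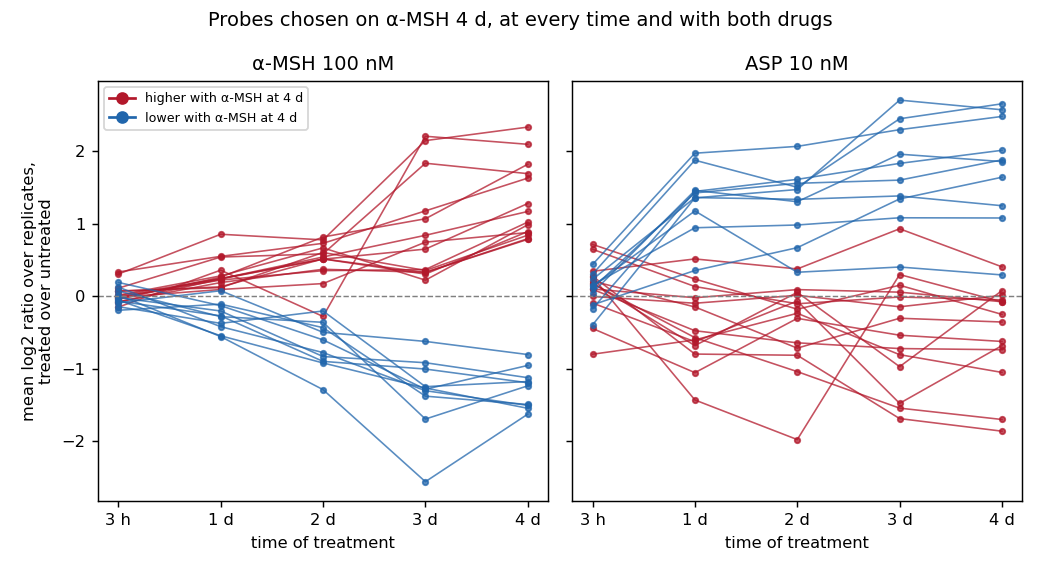
Mean log2 ratio of 3 replicates (1 or 2 at some ASP times for 1779209_1 and 1779290_1), treated over untreated, of the 14 probes higher (red) and 10 probes lower (blue) with α-MSH at 4 d, at each time of α-MSH at 100 nM (left) and of ASP at 10 nM (right); times are evenly spaced on the axis and are not to scale. Under ASP the blue probes lie above 0 from 1 d on and most red ones below 0.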

How the data were processed

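Per the labels' protocols, total RNA was purified on RNeasy columns and coupled indirectly to Cy3 or Cy5. As deposited by the authors, each value is a log ratio between both channels, read here as log2. The sources used here do not give the scanner, image software, normalization, log base, centring or numerator. The median of each array and then each probe's mean dye effect over the drug's arrays were subtracted, and each pair was averaged to 1 replicate. Replicate 3 of ASP at 2 d was a lone Cy3 array, whose dye effect only the subtraction removes. In R 4.3.3, limma 3.58.1 (lmFit, eBayes) fitted 30 replicates of 10 groups together, with Benjamini-Hochberg adjustment over probes with a value in at least 2 of 3 replicates. At 4 d 163 listed probes were not tested, 60 of them with a value on at least 1 array. The code was tested on simulated data with independent noise on every array. Such data cannot show how the fit handles the unlike replicates seen here. Precision is limited by the number of arrays. The described probes had a value on all 6 arrays and one sign in all 3 replicates, and were the 10 smallest p in each direction, with, among those of one sign on all 6 arrays, the 5 highest and 5 lowest means. The comparison, rules and lists were chosen with earlier results of these data known. Gene lists could not be applied without gene names. Alternatives covered pairing, samples in the fit, centring, scaling, dye removal, weights, blocks, probe filter and replicates.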

Additional observations from a re-analysis of the deposited data

Results flagged for a closer look

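The array of replicate 1 with treated RNA in Cy3 had values for 38058 probes, fewer than the other 5 arrays of α-MSH at 4 d, which had at least 38261. It was the only one to stand apart among 29 sets of 6 values tested this way (5 measures of the arrays and the 24 described probes), where chance gives about 1 in 20.

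The responses to α-MSH and ASP at 4 d differed in 909 probes in limma. Among the described higher probes the difference, α-MSH minus ASP, was called at 3.38 for 1788237_1, 2.31 for 1770633_1, 1.63 for 1777252_1, 3.03 for 1776305_1, 1.76 for 1775907_1, 2.68 for 1786937_1, 0.87 for 1763341_1, 1.09 for 1798518_1, 0.87 for 1783862_1 and 0.83 for 1789092_1. Among the lower ones it was called at -2.68 for 1797779_1, -2.03 for 1771300_1, -3.13 for 1783022_1, -3.65 for 1770597_1, -3.05 for 1789552_1, -1.53 for 1791244_1, -3.13 for 1767340_1, -4.07 for 1763454_1, -2.79 for 1792131_1 and -4.28 for 1768586_1. The α-MSH side of each difference had served to choose these probes, so the calls are no separate support for them. In 1798518_1 and 1789092_1 that side rested on one dye orientation. Drug, dose and run cannot be told apart in these differences.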

How the results depend on the processing

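For α-MSH at 4 d against untreated cells, the count of 0 became 66 with pairs by title number. Single arrays gave 151 under a random block for the pair and 122 as independent. The count was 22 without α-MSH 3 h in the fit, 37 without centring and 121 when a probe needed a value on all 59 arrays. It was 17 with no dye removal, a fit that also left out a probe's pairs with a value on only 1 array. After loess it was 34, and with array weights 506. Both fits on single arrays entered the arrays of a replicate separately, and the random block, with a consensus correlation of -0.08, made no allowance for RNA shared by a pair. The causes were not tested. It was 0 without replicate 1, 2 or 3. The difference from 3 h had 2 calls with the random block, 1763454_1 and 1771300_1, and 839 with array weights, which gave 54 calls against 1 d and 35 against 3 d. Against 2 d, fits without 1 replicate gave 0 to 1 calls, the 1 being 1774237_1 without replicate 3 of 2 d. These probes were named after their values were seen, apart from the described ones. The difference from ASP at 4 d fell from 909 to 262 with only the groups compared, rose to 1383 with arrays scaled to one spread and 2560 with array weights, and lay between 459 and 858 without 1 replicate: 520, 459 and 628 without α-MSH replicate 1, 2 and 3, and 858, 460 and 744 without those of ASP. Of 428 refits of the 24 described probes, 181 moved an adjusted p to under 0.05 and 0 reversed. All used arrays from which the 24 had been chosen, so these counts are no separate support.

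With the replicate number as a block (replicate block), 0 probes were called at 4 d and 810 against ASP. The numbers were not taken as pairing: deviations of same-numbered replicates at 4 d and at other α-MSH times correlated between -0.30 and 0.10 across probes, and all 3 replicates correlated best with their own number at 1 d but not at 3 h, 2 d or 3 d. With the run as a block 0 were called at 4 d. This block could not be fitted for ASP, whose arrays are all of 1 run.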
